A study of Mus musculus with 44 samples.

Results

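In granulosa cells of Smad2HA/+ mice, 9204 regions of the genome carried a peak in every one of the 12 peak lists made with HA, SMAD2 and SMAD3 antibodies. They were chosen from 30335 starting regions, which are places where peaks of both HA lists of vehicle-treated cells overlapped, and they make up 30.34% of them. To be kept, a starting region had to overlap by at least 1 bp a peak in each of the other 10 lists, namely both HA lists of GDF9-treated cells and the 8 SMAD2 and SMAD3 lists of both treatments. The regions were therefore chosen by measured peaks, and their peaks, widths and signals in these 12 lists are described below without a test. They are called the shared SMAD regions here, and the remaining 21131 are called the other starting regions.

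CUT&RUN, in which a nuclease tethered to an antibody releases the DNA around the bound protein, was carried out on primary granulosa cells, and RNA was sequenced from cells of 1 of the lines. The cells came from ovaries of 3 to 4 week-old females of a mixed C57BL/6J and 129S5/SvEvBrd background that had received 5 IU of PMSG 46 h earlier, and they were cultured for 4 d. They then received vehicle or mouse GDF9 at 100 ng/mL, and 4 h later were collected. Smad2HA/+ mice carry 1 allele of Smad2 with a C-terminal HA tag, and Smad3PA/PA mice carry an N-terminal PA tag on both alleles of Smad3. Both tags are in every cell of the animal, and all samples came from 1 or the other tagged line. The 12 lists of Smad2HA/+ cells hold 2 replicates for each of HA, SMAD2 and SMAD3 in each treatment. Lists that the selection did not use were 4 H3K27ac lists of the same line and, from Smad3PA/PA cells, 4 lists each for SMAD2, PA, SMAD4 and H3K27ac. The RNA came from 2 vehicle and 2 GDF9 samples. By the study's results section these were Smad3PA/PA cells. Cells of 8 mice were pooled for a line, so that replicates are not known to be separate cultures, and p-values measure the spread between these lists or samples, which may be technical.

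GDF9 is a ligand of the TGF-beta family that the oocyte secretes. Its receptors on granulosa cells phosphorylate SMAD2 and SMAD3, which join SMAD4, enter the nucleus and bind DNA together with other transcription factors. Their DNA-binding domain recognizes a short GTCT or CAGAC core and GC-rich variants of it, whereas the common splice form of SMAD2 contacts DNA poorly on its own. Genes that the pathway is known to induce include its own inhibitors, such as Smad7, Smad6 and Skil. Acetylation of histone H3 at lysine 27 (H3K27ac) marks active promoters and enhancers.

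The sequences below were read from the RefSeq copy of GRCm38 (mm10), plus strand, and are the centres of shared SMAD regions, 100 bp to either side. Capitals mark a SMAD core (CAGAC or its complement GTCTG), the paired SMAD element GTCTAGAC, the SMAD GC element (GGCGC or GCGCC) and the AP-1 element TGANTCA, the site of FOS and JUN dimers. The first 4 are regions at genes of the SMAD2/3 pathway, shown because they carry the elements that the family is known for in different numbers.
Skil promoter, chr3:31094531-31094731: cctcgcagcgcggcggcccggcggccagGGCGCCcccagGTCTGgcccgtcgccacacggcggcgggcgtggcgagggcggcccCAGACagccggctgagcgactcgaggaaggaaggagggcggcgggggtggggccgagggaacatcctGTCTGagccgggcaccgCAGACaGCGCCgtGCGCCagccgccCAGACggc
Smad6 promoter, chr9:64022998-64023198: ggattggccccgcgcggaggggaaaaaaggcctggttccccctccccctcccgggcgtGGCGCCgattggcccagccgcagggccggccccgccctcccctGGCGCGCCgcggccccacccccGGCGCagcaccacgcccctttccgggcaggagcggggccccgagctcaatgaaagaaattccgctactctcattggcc
Bhlhe40 promoter, chr6:108659929-108660129: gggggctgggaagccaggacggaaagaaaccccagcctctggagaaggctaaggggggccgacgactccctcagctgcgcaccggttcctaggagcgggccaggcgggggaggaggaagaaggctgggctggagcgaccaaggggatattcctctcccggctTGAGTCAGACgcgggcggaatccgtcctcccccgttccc
Fstl3 intron, chr10:79780245-79780445: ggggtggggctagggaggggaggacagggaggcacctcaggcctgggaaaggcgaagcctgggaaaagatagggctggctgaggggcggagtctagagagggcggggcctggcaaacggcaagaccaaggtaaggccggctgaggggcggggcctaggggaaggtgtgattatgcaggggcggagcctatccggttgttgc
The Skil window held 5 cores and 4 GC elements, the Smad6 window held 5 GC elements and no core, and the Fstl3 window held neither. In the Bhlhe40 window the single core overlaps the AP-1 element. The next 3 are the highest-ranked intronic regions with the paired SMAD element, chosen after their values were seen. This element was the rarest of those searched, and its regions had a high SMAD2 percentile, which is described further below and is not particular to them.
Cubn intron, chr2:13409857-13410057: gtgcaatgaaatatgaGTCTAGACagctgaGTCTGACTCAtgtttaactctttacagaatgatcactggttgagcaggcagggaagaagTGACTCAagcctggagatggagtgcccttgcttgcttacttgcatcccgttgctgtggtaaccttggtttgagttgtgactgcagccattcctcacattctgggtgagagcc
Intron, 18405 bp from the nearest protein-coding start (Nsmce3), chr7:64891302-64891502: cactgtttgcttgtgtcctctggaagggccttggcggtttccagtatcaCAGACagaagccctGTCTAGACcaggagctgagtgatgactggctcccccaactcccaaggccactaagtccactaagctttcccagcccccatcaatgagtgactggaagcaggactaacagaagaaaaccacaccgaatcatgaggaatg
Intron, 100226 bp from the nearest protein-coding start (Commd9), chr2:101986379-101986579: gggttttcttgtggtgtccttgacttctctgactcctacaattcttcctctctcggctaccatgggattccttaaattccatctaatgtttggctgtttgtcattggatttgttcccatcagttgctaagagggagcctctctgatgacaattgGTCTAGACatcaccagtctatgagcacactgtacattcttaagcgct
The last 3 are among the highest-ranked regions of all and show what stands at the top of the signal scale.
Between genes, 199994 bp from the Rab10 start, chr12:3109875-3110075: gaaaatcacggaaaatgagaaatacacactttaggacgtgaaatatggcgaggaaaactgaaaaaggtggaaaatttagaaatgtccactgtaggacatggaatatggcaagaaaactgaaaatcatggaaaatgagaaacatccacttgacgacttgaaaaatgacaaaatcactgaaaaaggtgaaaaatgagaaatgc
Promoter of Gm33838, chr9:35305342-35305542: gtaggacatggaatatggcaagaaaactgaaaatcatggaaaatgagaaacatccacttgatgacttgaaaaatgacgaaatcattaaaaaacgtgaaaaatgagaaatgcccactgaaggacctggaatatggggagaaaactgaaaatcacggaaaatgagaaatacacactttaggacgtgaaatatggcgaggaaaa
Filip1l first intron, chr16:57391430-57391630: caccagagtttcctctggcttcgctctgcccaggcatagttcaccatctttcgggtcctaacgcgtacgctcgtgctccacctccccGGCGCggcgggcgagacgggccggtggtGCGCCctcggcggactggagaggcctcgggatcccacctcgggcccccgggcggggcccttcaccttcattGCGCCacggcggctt
The reference marks both of the first windows as repeats over 100% of their length, and they share a run of 61 bases, counting either strand. The Filip1l window has a GC content of 70.15% and no base marked as a repeat. The absence of this mark does not show that a sequence occurs only once in the genome.

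The shared SMAD regions were wide and lay near gene starts. Their median width was 2954 bp (quartiles 2093 and 4176, range 83 to 73202), against 2011 bp for the other starting regions, and they covered 31.951 Mb. A promoter, here 3 kb on either side of any transcript start in GENCODE M21, held the centre of 5797 of them (62.98%), against 28.58% of the other starting regions. Another 656 (7.127%) were centred in a first intron, 1002 (10.89%) in another intron, 94 (1.021%) in an exon and 1655 (17.98%) between genes. The median distance to a protein-coding start was 724 bp, against 18787 bp for the other starting regions. By chromosome, between 24.3% (X) and 37.4% (7) of the starting regions were shared, apart from Y, where 17 of 36 were.

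The number of lists in which a starting region recurred was lopsided. It rose from 680 regions found in none of the other 10 lists to 3860 found in 9, and 9204 were found in all 10. At the border of the rule, regions in 9 of 10 lists had a median width of 2331 bp, a promoter share of 45.93% and a median percentile of 79.03 in the HA vehicle lists. The corresponding values for the shared SMAD regions were 2954 bp, 62.98% and 89.77. Of the 3860 regions that missed 1 list, 1242 lacked a peak in SMAD2 GDF9 replicate 1 and 786 in SMAD2 GDF9 replicate 2, whereas SMAD3 vehicle replicate 2 accounted for 31. Starting from HA regions of GDF9-treated cells gave 9224 regions, and 9096 (98.83%) of the shared SMAD regions overlapped 1 of them.

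**Figure D1:**
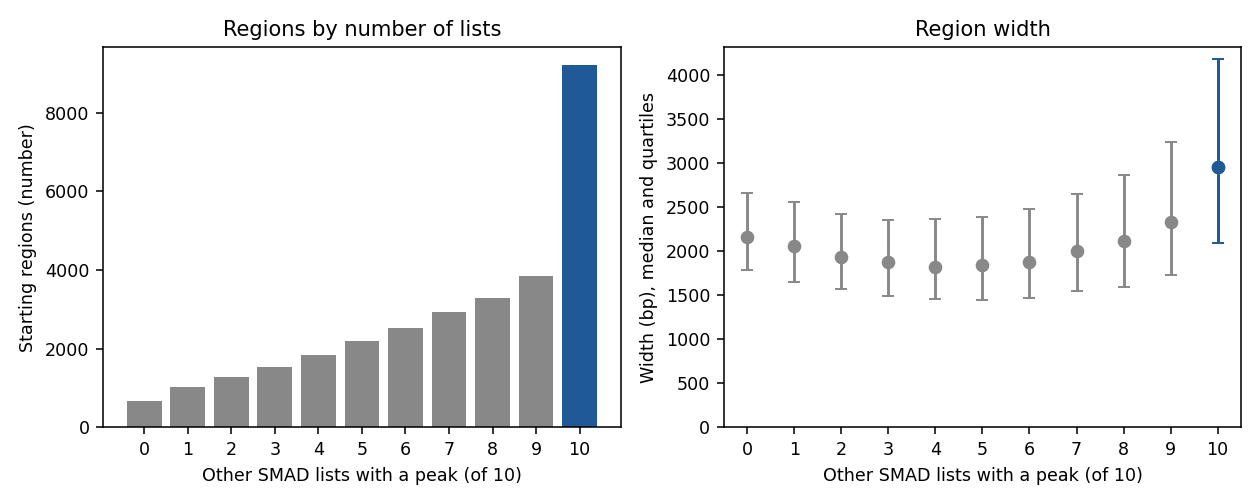
Left, the number of starting regions (vertical axis) by how many of the other 10 SMAD lists held a peak there (horizontal axis). Right, the width of these regions in bp, with the median as a point and the quartiles as bars. The 9204 regions in all 10 lists (blue) are the largest class and the widest, with a median of 2954 bp against 2331 bp for those in 9 lists.

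Each peak carries a maximum signal, the highest coverage within it, which the authors had scaled to the E. coli DNA of the spike-in. Divided by the value of 1 fragment, the median maximum at the shared SMAD regions was 40 and 42 fragments in the HA vehicle lists and 31 and 54 with GDF9. It was 26 in both SMAD2 vehicle lists, 21 and 22 with GDF9, and 40 and 49 for SMAD3 with vehicle and 33 and 36 with GDF9. The medians over all peaks of these lists were 10 to 17 fragments, and 94.6% to 98.8% of the shared SMAD regions stood above the median of a list. Their median percentile ranged from 89.5 to 91.8 over the 12 lists. The highest points of the 12 lists lay close to each other, at a median of 26.5 bp from their common median, and in 4715 regions (51.23%) all 12 lay within 200 bp of it.

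Across the 9204 regions the log2 maximum signals of replicates correlated with a Pearson r of 0.948 (HA), 0.882 (SMAD2) and 0.926 (SMAD3) in vehicle. Between antibodies in vehicle the r was 0.809 for HA and SMAD3, 0.74 for SMAD2 and SMAD3 and 0.666 for HA and SMAD2. The points share the pooled cells and the local base composition, and no p is given. The SMAD2 lists also had the fewest fragments and the lowest r between replicates, and the part of this in the values was not tested.

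In the contrast of treatments, which the selection had used, the median log2 ratio of GDF9 over vehicle at the shared SMAD regions was 0.28 for HA and 0.36 for SMAD2. The whole lists had shifted by 0.37 and 0.53 between their medians. For SMAD3 the median was -0.15, against a shift of 0.03 for the lists. Both GDF9 maxima exceeded both vehicle maxima at 2295 regions for HA (24.93%, background 27.7% of starting regions with a peak in the 4 HA lists) and at 2765 for SMAD2 (30.04%, background 30.7%). For SMAD3 this was so at 678 (7.366%, background 7.82%). Both GDF9 maxima lay below both vehicle maxima at 70 regions for HA (background 1.2%), 38 for SMAD2 (background 0.404%) and 3130 for SMAD3 (34.01%, background 31.4%).

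At Skil, which encodes a corepressor of SMAD proteins and has 3 shared SMAD regions, the highest-ranked one is the promoter region chr3:31092878-31103974. Its SMAD2 maximum signal was 8.21 and 5.74 in vehicle and 10.1 and 8.24 with GDF9. The SMAD3 maximum was 7.19 and 6.42 in vehicle and 4.56 and 6.31 with GDF9, and the HA maximum was 1.52 and 1.25 and then 1.21 and 2.57. Both GDF9 values of SMAD2 were above both vehicle values, both of SMAD3 were below, and those of HA overlapped. These are scaled values, and the SMAD2 lists as a whole had shifted up by 0.53 (log2).

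Smad6 and Smad7 encode inhibitory SMADs that block the receptors. At the Smad7 promoter (chr18:75361369-75368729) the SMAD2 maximum signal was 4.06 and 2.21 in vehicle and 5.23 and 4.22 with GDF9, the SMAD3 maximum was 3.84 and 3.48 and then 3.03 and 3.67, and the HA maximum was 2.1 and 2.18 and then 2.48 and 3.10. At the Smad6 promoter (chr9:64021050-64024294) the SMAD2 maximum was 4.31 and 2.52 in vehicle and 4.92 and 5.11 with GDF9. The scaled SMAD2 signal was thus higher in both GDF9 lists at both genes, while the SMAD2 lists as a whole had also shifted up by 0.53 (log2). The spike-in behind this scale was not read directly but worked out from the value of 1 fragment. It came to 5962751 fragments in SMAD2 vehicle replicate 2 and 2542630 to 3180540 in the other SMAD2 lists. Whether SMAD2 rose at these genes beyond the shift of the lists was not tested. Fstl3, which encodes a follistatin-like protein that binds activins, was different in its order of antibodies. Its region (chr10:79779512-79781322) had HA maxima of 4.89, 5.41, 4.81 and 7.04 over vehicle and GDF9 lists in order, and SMAD2 maxima of 2.61, 0.956, 2.20 and 1.29.

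At the top of the scale, 7 of the 10 members with the highest mean percentile had more than 50% of the central window marked as repeats, and the other 3 had 21.95% to 37.91%. There were 4 of them at Gm10800 and Gm10801 (chr2:98662174-98667456), and the others lay between genes on chromosome 12 (chr12:3109673-3111109), at Gm21738 on chromosome 14, Gm33838 and the Gm10718 cluster on chromosome 9, an intron of Chl1 on chromosome 6 and a place 35532 bp from the Pak3 start on X. The highest of them (chr2:98666209-98667456) had maximum signals of 24258 to 82165 in the 12 lists. Together these 10 held 78.2% to 89.4% of the summed maxima of all 9204 regions, depending on the list. Each of them had a peak in the central window in all 12 SMAD2, PA and SMAD4 lists of Smad3PA/PA cells, and 9 of them in all 8 H3K27ac lists. Peaks were thus called there with HA, SMAD2, SMAD3, PA, SMAD4 and H3K27ac antibodies alike, IgG was not analysed here, and the part that repeats have in these signals was not tested.

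By soft masking, the reference's mark for repeats, 822 shared SMAD regions (8.93%) had more than 50% of the window of 200 bp to either side of the centre masked. Of these, 58.3% were between genes and 14.7% at promoters, against 14% and 67.7% of the other 8382. Their median width was 1584 bp against 3058 bp. Their median percentile, averaged over 4 lists, was higher for SMAD2 than for HA, at 94.9 against 85.9. Because they behaved differently in the lists that the selection had not used, values are given below with and without them.

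Shared SMAD regions were also met more often in Smad3PA/PA cells, the other line, whose lists the selection had not used. In windows of 200 bp to either side of the centre, of equal length because the shared SMAD regions are wider, a peak of the 12 SMAD2, PA and SMAD4 lists was found in 21.8% of the shared SMAD regions on average and in 8.74% of the other starting regions. The difference was 13.0 percentage points (SD 8.6 over 12 lists, range 3.36 to 25.6), and it was positive in 12 of 12 lists (two-sided exact sign-flip permutation test, p = 0.000488, the smallest that 12 lists allow). Against regions in 9 of 10 lists it was 9.39 points, and compared within 10 classes of HA vehicle signal it was 8.76 points, both positive in 12 of 12. Without the repeat-masked windows it was 11.9 points, at start sites 11.8 and outside 3 kb of a start site 16.2. These lists were shallow, since the median maximum at shared SMAD regions was 4 to 9 fragments, so a missing peak there is not evidence that binding is absent.

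The antibodies differed in how often they met the regions. SMAD2 peaks in Smad3PA/PA cells were found at 27.9% and 4.7% of the shared SMAD regions in vehicle and at 34.2% and 31.9% with GDF9. The low value belongs to a short list of 23082 peaks. SMAD4 peaks were found at 33.8% and 25% in vehicle and 36.7% and 37.9% with GDF9, and PA peaks, which report tagged SMAD3, at 7.36% and 5.98% in vehicle and 7.32% and 8.79% with GDF9. The corresponding shares of the other starting regions were 1.2% to 8.57% for SMAD2, 14.4% to 19.5% for SMAD4 and 2.46% to 3.2% for PA.

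The increase with GDF9 was 16.7 points for SMAD2 (exact permutation test, p = 0.33), 7.87 for SMAD4 (exact p = 0.33) and 1.39 for PA (exact p = 0.667), and 2 against 2 lists allow no p under 0.33. For SMAD2 and SMAD4 both GDF9 lists lay above both vehicle lists, while those of PA overlapped. The sizes rested on single lists. The SMAD2 value was 5.08 without the short vehicle replicate 2 and 28.3 without vehicle replicate 1, and the SMAD4 value was 3.51 and 12.2 without the same replicates. The PA value was 0.6575 without GDF9 replicate 2, little more without vehicle replicate 2 and 2.12 without GDF9 replicate 1.

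PA peaks at the shared SMAD regions lay mostly in repeats in 3 of 4 lists. Of the shared SMAD regions with a PA peak, 30.5% to 60% were more than 50% masked, against 5.42% to 8.16% for SMAD4. PA peaks were present at 20.4% to 59% of the masked regions and at 3.61% to 4.56% of the others. In all 12 Smad3PA/PA lists together a peak was found at 155 shared SMAD regions, of which 43.2% were masked and 40% lay between genes. By contrast, 1548 (16.8%) met none of the 12 lists, against 41.9% of the other starting regions.

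**Figure D2:**
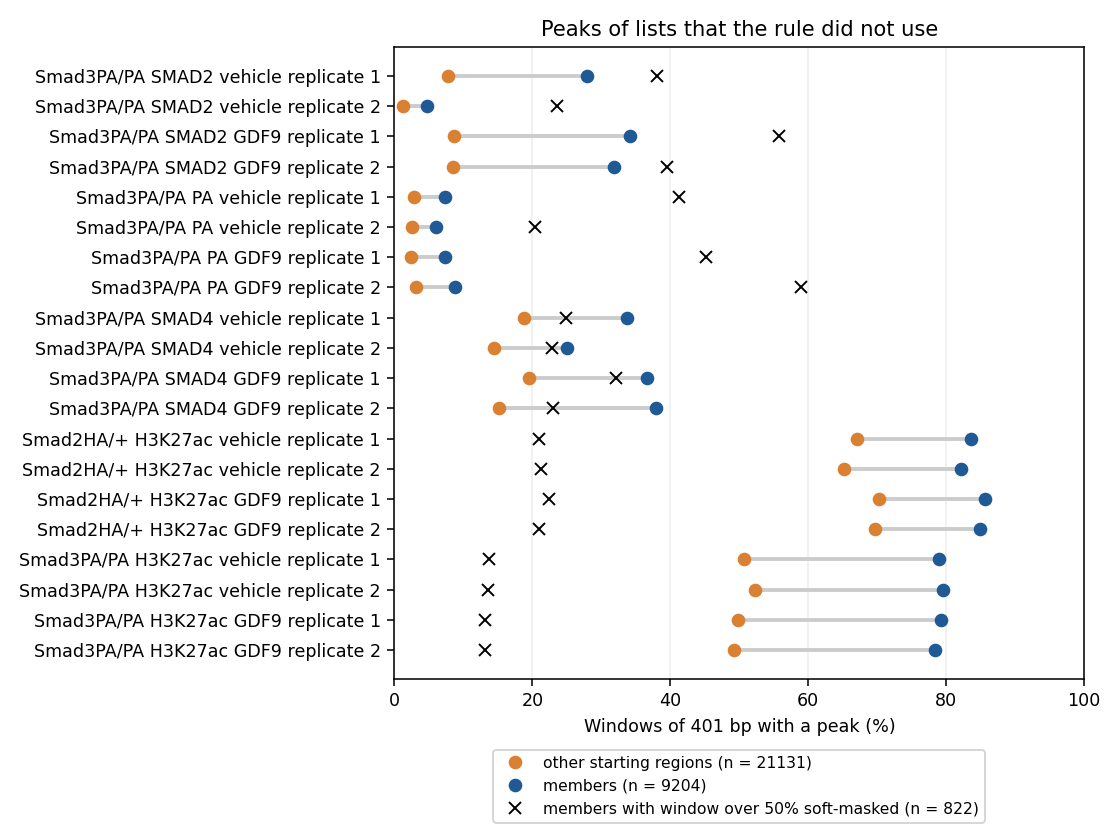
Share of windows with a peak (horizontal axis, %) in each of the 20 lists that the selection had not used (vertical axis). Blue points are the 9204 shared SMAD regions, orange points the 21131 other starting regions and crosses the 822 shared SMAD regions with more than 50% of the window masked. Blue lies to the right of orange in all 20 lists, and the crosses lie far to the right for PA and far to the left for H3K27ac.

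H3K27ac marked most of the shared SMAD regions, mainly those at promoters. Over the 8 lists of both lines a peak was found at 81.5% of them and at 59.3% of the other starting regions, a difference of 22.3 points (SD 6.76, range 15.2 to 29.5, positive in 8 of 8 lists, two-sided exact sign-flip permutation test, p = 0.00781, the smallest that 8 lists allow). Outside 3 kb of a start site the shares were 67.8% and 56.3%, a difference of 11.5 points, which was 4.96 to 5.59 in the lists of Smad2HA/+ cells and 16.6 to 18.7 in those of Smad3PA/PA cells. At start sites it was 22.8 points. It was 5.52 points against regions in 9 of 10 lists, 13.6 points within 10 classes of HA vehicle signal and 26.4 points without masked windows. All 8 lists held a peak at 6302 shared SMAD regions (68.47%) and none at 992 (10.78%).

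The mark depended on place. At promoters 76.3% of the shared SMAD regions were in all 8 lists and 3.55% in none. In first introns these shares were 69.4% and 11.6%, in other introns 66.1% and 15%, and between genes 42.7% and 33%. Among masked regions 10.8% were in all 8 lists and 73.8% in none, against 74.1% and 4.59% of the others, and 61.2% of the regions without any H3K27ac peak were masked. In masked windows the comparison ran the opposite way, since H3K27ac was found in 21% to 22.4% (Smad2HA/+) and 13.1% to 13.7% (Smad3PA/PA) of the shared SMAD regions and in 38.5% to 42.2% and 21.1% to 22.9% of the other starting regions.

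**Figure D3:**
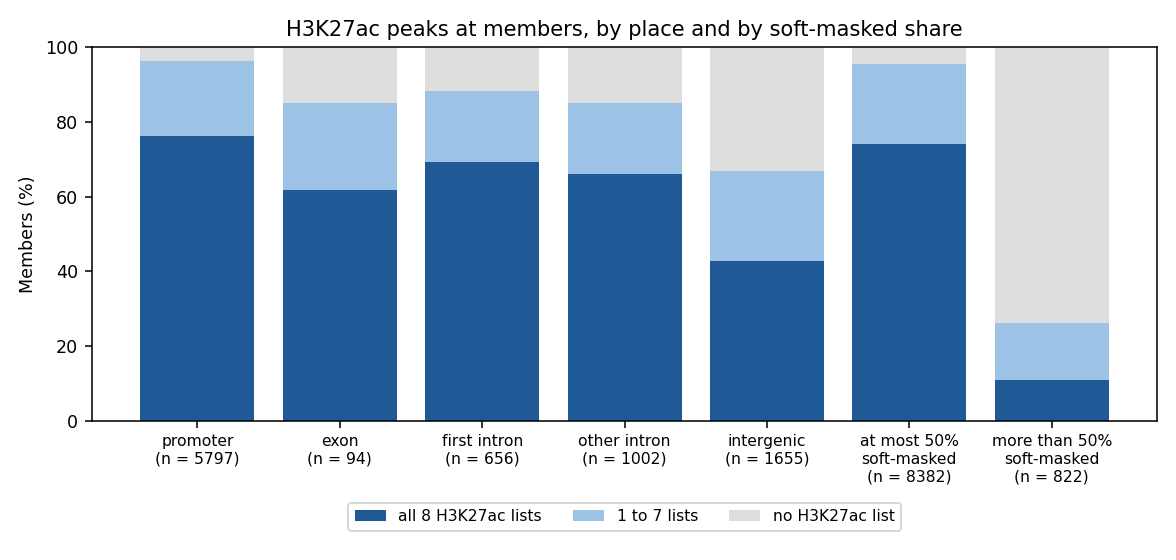
Stacked bars give the percentage of shared SMAD regions (vertical axis) with a peak in all 8 H3K27ac lists (dark blue), in 1 to 7 (light blue) and in none (grey), by the place of the centre and by the masked share of the window. Promoters have the largest dark part among places (76.3%), and windows more than 50% masked have the smallest (10.8%).

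With GDF9, H3K27ac peaks were found at 85.5% and 84.9% of the shared SMAD regions in Smad2HA/+ cells, against 83.5% and 82.1% in vehicle (difference 2.43 points, exact permutation test, p = 0.33). In Smad3PA/PA cells the shares were 79.3% and 78.4% against 78.9% and 79.5% (-0.369 points, exact p = 0.667, and 0.07 points without GDF9 replicate 2). The height of the mark was tested with limma on the log2 summed signal of regions with a peak in all 4 lists of a line. In Smad2HA/+ cells 7649 of the shared SMAD regions lay in 4273 of the 7721 regions tested, and none of these was called at an adjusted p under 0.05 (background 0%). At an unadjusted p under 0.05 there were 360 (8.42%, background 10.1%), and the smallest adjusted p was 0.244. In Smad3PA/PA cells 6887 lay in 6342 of the 16404 regions tested, again with 0 called (background 0%) and 16 at an unadjusted p under 0.05 (0.252%, background 0.756%). The median log2 change was -0.03 in Smad2HA/+ and -0.04 in Smad3PA/PA, against -0.04 and -0.07 over all regions tested. Replicates of Smad3PA/PA cells lay far apart, with median summed signals of 33532 and 46617 in vehicle and 31004 and 47700 with GDF9 where a shared SMAD region was held. Without GDF9 replicate 1 the median log2 change there was 0.28, and without GDF9 replicate 2 it was -0.35, so modest changes were not detectable in this line by this test. H3K27ac domains were broad in Smad2HA/+ cells, with a median of 63987 bp where they held a shared SMAD region, so a change limited to a SMAD peak would be a small part of the summed signal. When the highest maximum signal replaced the summed signal, 35 of the 4273 Smad2HA/+ regions were called by limma (0.819%, background 0.725%), all higher with GDF9.

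In DNA sequence the shared SMAD regions were GC-rich. The median GC content of these windows was 54.36%, against 46.13% in the other starting regions and 44.14% in windows 2 kb to either side. The CpG ratio, observed over expected, was above 0.6 in 47.31% of the windows, as in CpG islands, against 13.89%. The SP/KLF element GGGCGG was found in 46.05% and 16.67%, the ETS element CCGGAAG in 15.4% and 4.06%, and the CTCF core AGGGGGC in 12.6% and 6.46%, with shares of 25.6%, 7.51% and 8.33% in all starting regions. In windows of like GC content, from 58.35% to 85.29%, the CTCF shares were close, at 23.8% and 22.8%. At a GC content of 50.62% to 58.1% they were 9.86% and 9.79%. In the same 2 classes SP/KLF had 86.1% and 77.4%, then 43.4% and 24.8%. ETS had 27.2% and 16.9%, then 16.9% and 6.38%. Both strands were searched. Such matches are a description, not a site of binding.

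The SMAD core did not set the regions apart. It was found in 59.8% of their windows, 62.0% of the other starting windows, 61.3% of all starting windows and 59.3% of the flanking windows. The SMAD GC element was found in 46.8%, 20.4% and 28.4% of shared, other and all windows, yet in windows of like GC content, from 58.35% to 85.29%, the shares were 84.1% in shared and 83.0% in other windows. At a GC content of 50.62% to 58.1% they were 47% and 30%.

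The AP-1 element was less common in the shared SMAD regions, in 24.1% against 40.1% of the other and 35.2% of all starting windows. In windows of like GC content, from 58.35% to 85.29%, it was found in 6.865% of shared and 8.243% of other windows. From 50.62% to 58.1% the AP-1 shares were 26.61% and 37.23%. At promoters it was found in 13.4% against 22.6%. In first introns the shares were close, at 48.0% and 46.4%, as in other introns, at 47.0% and 48.9%, and between genes they were 37.5% and 45.8%. Flanking windows held it in 11.7%. Away from promoters the matches gathered at the centre, with 23.4 and 21.6 AP-1 element matches per 100 regions in the 100 bp on either side of it. At promoters these numbers were 5.59 and 5.61. The TEAD element GGAATG was found in 21.6% of the shared, 26.8% of the other and 25.2% of all windows, and the RUNX element TGTGGT in 23.0%, 32.3% and 29.5%. These gaps were smaller in windows of like GC content. From 58.35% to 85.29% TEAD had 13.08% (shared) and 13.63% (other), and RUNX had 13.13% and 13.23%. From 50.62% to 58.1% TEAD had 25.64% and 26.7%, and RUNX had 24.25% and 29.63%.

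**Figure D4:**
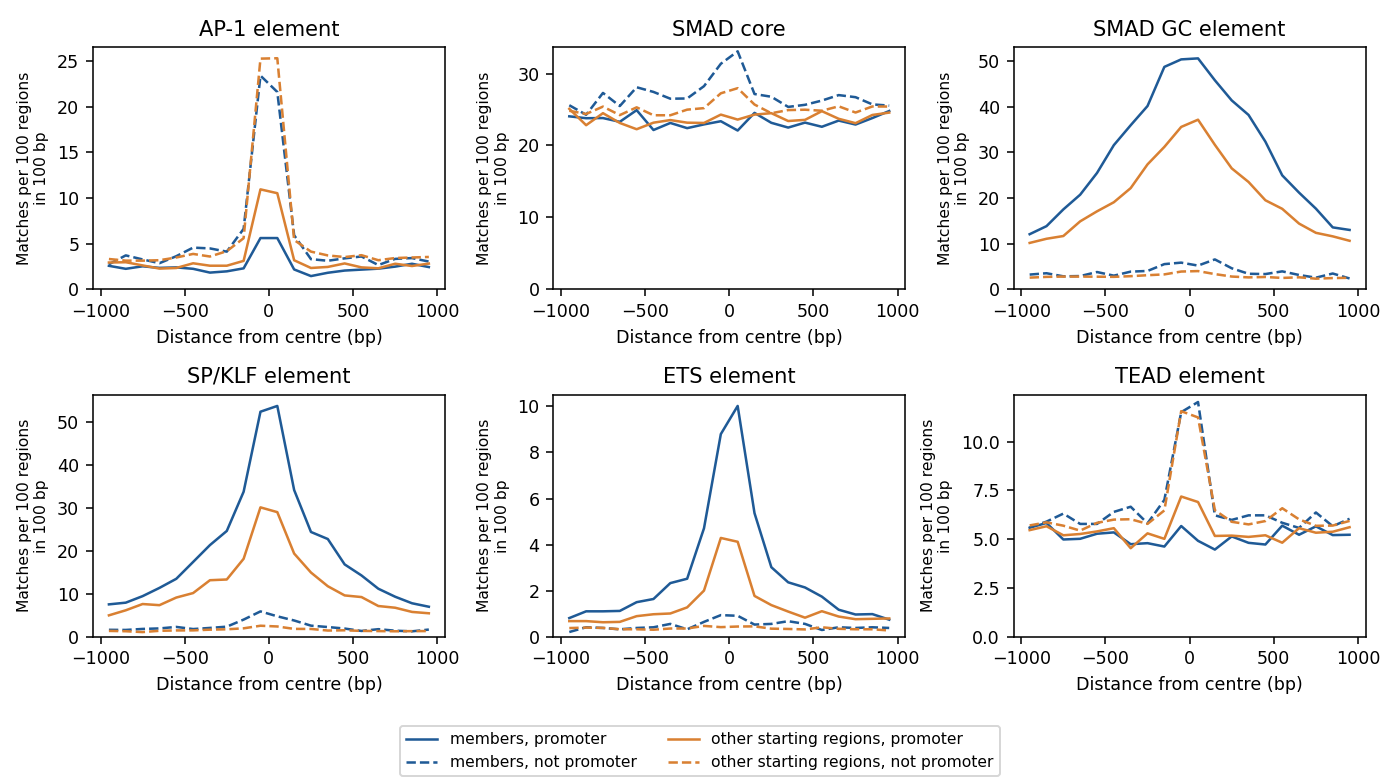
Matches per 100 regions in bins of 100 bp (vertical axis) against distance from the region's centre in bp (horizontal axis), for 6 elements. Blue is the shared SMAD regions and orange the other starting regions, solid at promoters and dashed elsewhere. AP-1 matches peak at the centre of regions away from promoters in both sets, and SMAD GC, SP/KLF and ETS matches peak at promoters.

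The paired SMAD element GTCTAGAC was rare but recurred in the shared SMAD regions. It was found in 66 of them (0.717%), in 50 of the other starting regions (0.237%), in 0.382% of all starting regions and in 0.391% of the flanking windows. In introns other than the first it was found in 19 of 1002 shared windows (1.9%) and in 0.219% of the others. The median percentile of the 66, averaged over 4 lists, was 96.5 for SMAD2, 88.7 for SMAD3 and 84.4 for HA, whereas these values were 90.9, 91.1 and 89.8 over all shared SMAD regions. The selection had used these lists, so this is a description. The masked regions had the same order, with 94.9 for SMAD2, 89.9 for SMAD3 and 85.9 for HA.

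In the Smad3PA/PA lists, which the selection had not used, SMAD4 peaks were found at 31 and 32 of the 66 in vehicle (47% and 48.5%) and at 36 and 34 with GDF9 (54.5% and 51.5%). At shared SMAD regions without the element these shares were 33.7%, 24.9%, 36.5% and 37.8%. SMAD2 peaks of the same line were found at 30.3% and 3.03% of the 66 in vehicle and at 34.8% to 37.9% with GDF9, close to the 27.9%, 4.72% and 31.9% to 34.1% of regions without the element. PA peaks were found at 3.03% and 4.55% of the 66 in vehicle and at 6.06% and 7.58% with GDF9. Regions without the element had 7.39%, 5.99%, 7.33% and 8.8%, but they include the masked regions, where PA peaks were frequent. Among all shared SMAD regions at most 50% masked, the PA shares were 4.03% and 4.56% in vehicle and 3.61% and 3.87% with GDF9. Against these, the 66 were lower in both vehicle lists, by little in replicate 2, and higher in both GDF9 lists. The PA values of the 66 rest on 2 to 5 regions. H3K27ac was in all 8 lists at 56.1% of the 66. No member of this set was more than 50% masked.

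The printed intronic regions with the element differed in the order of SMAD2 and HA, list by list. At the region near Nsmce3 (chr7:64890351-64892769) the SMAD2 maximum signal was 9.12 and 4.76 in vehicle and 10.1 and 9.71 with GDF9. The HA maximum there was 2.59 and 2.65 in vehicle and 2.82 and 5.05 with GDF9, so SMAD2 stood above HA in every list, against the order of their list medians. At the Cubn intron (chr2:13404113-13412175), HA was higher, with 4.27 and 3.72 in vehicle and 3.93 and 8.51 with GDF9, and SMAD2 had 2.26 and 1.32 and then 3.50 and 2.35. In the Smad3PA/PA SMAD lists the regions near Nsmce3 and at Cubn met 7 and 6 of 12, and both were in all 8 H3K27ac lists. At the region near Commd9 (chr2:101985370-101988370) SMAD2 had 2.955 and 1.543 in vehicle and 3.854 and 3.508 with GDF9. HA had 3.205 and 3.329 there and then 2.767 and 4.475, so SMAD2 was above HA only in GDF9 replicate 1. The Commd9 region met 7 of the 12 SMAD lists and all 8 H3K27ac lists.

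The shared SMAD regions touched many genes. In all, 9623 annotated genes, 6986 of them protein coding, had 1 in the promoter, an exon or the first intron, and 7074 of the regions lay in such a place. Of 12597 genes tested in RNA, 6494 were such member genes. RNA depth was 8827825 to 11416005 reads in genes a sample. The granulosa label was checked against markers in these RNA samples. Of 25 granulosa identity and hormone genes 22 had a mean of at least 10 normalized counts and 3 did not (Amh, Cyp19a1, Lhcgr), with summed levels of 104642 to 105854 in all samples. Of 6 endothelial markers 5 were below 10 (sum 22.2 to 41.6), as were 6 of 8 oocyte markers (sum 34.2 to 47.4) and 3 of 6 macrophage markers (sum 103 and 107 in vehicle, 127 and 132 with GDF9). Stroma and fibroblast markers were present, at 22013 to 23033, of which Tagln took 45.5%, as were surface epithelium markers, at 5340 to 5688. Of theca markers 4 of 6 were below 10, with Insl3 at 0, while Aldh1a1 took 99.5% of their sum (38862 to 42607).

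The share of member genes that changed with GDF9 was near that of all genes. A gene was called where limma gave an adjusted p under 0.05 with a change of more than 0.18 (log2), up or down. Of 6494 member genes 235 were called (3.62%, background 3.14%), 185 higher (2.85%, background 2.44%) and 50 lower (0.77%, background 0.707%). Genes with another starting region only were called in 111 of 4017 cases (2.76%), and those without any in 50 of 2086 (2.4%). In bulk RNA, fewer cells of a type and less RNA per cell cannot be told apart. Of all member genes with RNA values, 87.2% reached a mean of 10, against 33.9% of genes without a shared SMAD region, so the tested genes are not all of them.

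SMAD2/3 feedback and target genes carried shared SMAD regions almost throughout, at 21 of 25, with 30 regions among them, where 51.6% of the genes tested in RNA and 31.8% of all protein-coding genes had one. Pmepa1, Smurf2 and Nedd4l were among those without one. In RNA 3 of the 21 rose with GDF9 (background 2.44%), none fell, and their median log2 fold change was 0.08, against -0.0064 over all genes. Ldlrad4, which restrains receptor signaling, went from 140 and 121 to 185 and 223 normalized counts (log2 fold change 0.63, SE 0.12, limma adjusted p = 0.0016). Fst, the activin antagonist follistatin, went from 664 and 654 to 863 and 840 (0.37, SE 0.06, limma adjusted p = 0.000147). Spsb1, a ubiquitin ligase adaptor that acts on the type II TGF-beta receptor, went from 2155 and 2264 to 2738 and 2582 (0.27, SE 0.04, limma adjusted p = 0.000195). In these 3 genes both GDF9 values were above both vehicle values. Pmepa1, a TGF-beta target that restrains SMAD signaling and has no shared SMAD region, also rose (0.40, SE 0.06, limma adjusted p = 5.62e-05).

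The feedback genes with the strongest SMAD2 signal did not pass the test. Skil had 2150 and 2108 normalized counts in vehicle and 2311 and 2318 with GDF9 (log2 fold change 0.12, SE 0.04, limma adjusted p = 0.139). Smad7 had 1078 in vehicle replicate 2, a lower count in vehicle replicate 1, and 1101 and 1075 with GDF9 (0.07, SE 0.06, adjusted p = 0.624). Smad6 had 469 and 447 and then 427 and 452 (-0.06, SE 0.07, adjusted p = 0.772). Only Skil had both GDF9 values above both vehicle values among these.

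All 23 AP-1 and immediate early genes had a shared SMAD region, against 51.6% of tested genes, and 7 of the 22 tested rose with GDF9 (background 2.44%) while none fell. Fosb, a FOS family subunit of AP-1, went from 108 and 95.7 to 229 and 204 normalized counts (log2 fold change 1.08, SE 0.13, limma adjusted p = 6.21e-07). Fos went from 380 and 346 to 701 and 668 (0.91, SE 0.07, adjusted p = 2.49e-10), and Nr4a1, an orphan nuclear receptor, from 206 and 203 to 354 and 379 (0.84, SE 0.09, adjusted p = 2.22e-07). Egr1, a zinc finger factor that luteinizing hormone also induces, went from 614 and 591 to 1042 and 963 (0.73, SE 0.06, adjusted p = 6.5e-10).

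Smaller rises were found for Ier2 (log2 fold change 0.26), Btg2 (0.25) and Ier3 (0.21). The JUN members did not pass, with Jun at 0.12, Junb at 0.14 and Jund at 0.04. At the Fos region (chr12:85471583-85480915) the SMAD3 maximum signal was 5.13 and 4.46 in vehicle and 2.99 and 4.43 with GDF9, and no SMAD list of Smad3PA/PA cells had a peak in its central window. Genes of this list are induced by many stimuli in many cell types.

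Of granulosa identity and hormone genes, 14 of 25 (56%) had a shared SMAD region, against 51.6% of tested genes and 31.8% of all protein-coding genes. Of these 14, 3 rose (background 2.44%) while 2 fell (background 0.707%). Besides Fos, Esr2, the estrogen receptor beta of granulosa cells, rose (log2 fold change 0.33, SE 0.08, limma adjusted p = 0.0207), as did Hsd17b1, which makes estradiol from estrone (0.29, SE 0.05, adjusted p = 0.000166). Ccnd2, the cyclin that drives granulosa proliferation, went from 6360 and 6152 to 5306 and 5090 normalized counts (-0.27, SE 0.04, adjusted p = 1.31e-05). Kitl, the ligand of the oocyte's KIT receptor, went from 2321 and 2128 to 1837 and 1783 (-0.30, SE 0.05, adjusted p = 0.000113). Fshr, Lhcgr, Cyp19a1, Amh, Nr5a1 and Nr5a2 had no shared SMAD region. Of the genes without one, Prlr, which encodes the receptor of prolactin, fell (-0.34, limma adjusted p = 0.00158), as did Nr5a2, which encodes a nuclear receptor (-0.29, limma adjusted p = 0.00189).

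Among cumulus expansion and ovulation genes 7 of 20 (35%) had a region, against 51.6% of tested genes and 31.8% of all protein-coding genes. Of these 7, 1 rose while 1 fell. Rgs2, a regulator of G-protein signaling, went from 93.0 and 103 to 194 and 199 normalized counts (log2 fold change 1.00, SE 0.13, limma adjusted p = 3.25e-06). Adamts1, the protease that cleaves versican at ovulation, went from 623 and 596 to 505 and 463 (-0.33, SE 0.07, adjusted p = 0.00352). Has2, Ptgs2 and Ptx3, which support cumulus expansion, had no shared SMAD region in the promoter, an exon or the first intron. Tnfaip6 and Vcan of the same list had one, and neither was called in RNA. Of the genes without one, Ptgs2 (log2 fold change 0.18, limma adjusted p = 0.00111), Ptx3 (0.85, adjusted p = 0.021) and the prostaglandin receptor gene Ptger2 (0.35, adjusted p = 0.00571) rose, and the protease gene Plau fell (-0.43, adjusted p = 7.23e-05). Has2 had a log2 fold change of 1.05 and did not pass (limma adjusted p = 0.0566). Of Hippo and YAP target genes 11 of 18 had a region, and none of the 11 was called.

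Of markers of other cells, a region was found at 3 of 6 theca genes, 2 of 12 stroma genes, 1 of 6 macrophage genes and 1 of 8 oocyte genes, and at none of 6 endothelial and 8 surface epithelium genes. No gene among these markers was called.

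The 10 member genes with the largest rise, among those called with a mean of at least 50, were Malat1, Fosb, Spaca6, Rgs2, Zfp786, Xrcc3, Fos, Tmem198, Nr4a1 and Leng8. Malat1, a nuclear noncoding RNA, went from 10976 and 11150 to 28822 and 26912 normalized counts (log2 fold change 1.33, SE 0.03, limma adjusted p = 2.79e-23) and lies in a region of 30882 bp (chr19:5791171-5822052). Log2 fold changes of the others ran from 0.80 (Leng8) to 1.08 (Fosb). The 10 with the largest fall were Adamts9, Nabp1, Spred1, 4921524J17Rik, Adamts1, Fzd5, Hmgb2, Rgl1, Nipa2 and Kitl. Adamts9, a matrix protease, went from 969 and 922 to 636 and 651 (-0.55, SE 0.06, limma adjusted p = 1.73e-07), and the others ran from -0.38 (Nabp1) to -0.30 (Kitl). The falls were smaller than the rises.

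At Hmgb2, which encodes a chromatin protein of dividing cells, the SMAD3 maximum signal was 19.9 and 18.1 in vehicle and 16.2 and 18.1 with GDF9, while its SMAD2 maximum was 1.23 and 0.57 and then 1.57 and 1.06. Calls of 10 named genes, Hmgb2 and Esr2 among them, were lost in at least 1 of the refits described at the end. Without vehicle replicate 1 the number of called member genes was 125, and 91.2% of them were higher with GDF9, against 78.7% of the 235.

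**Figure D5:**
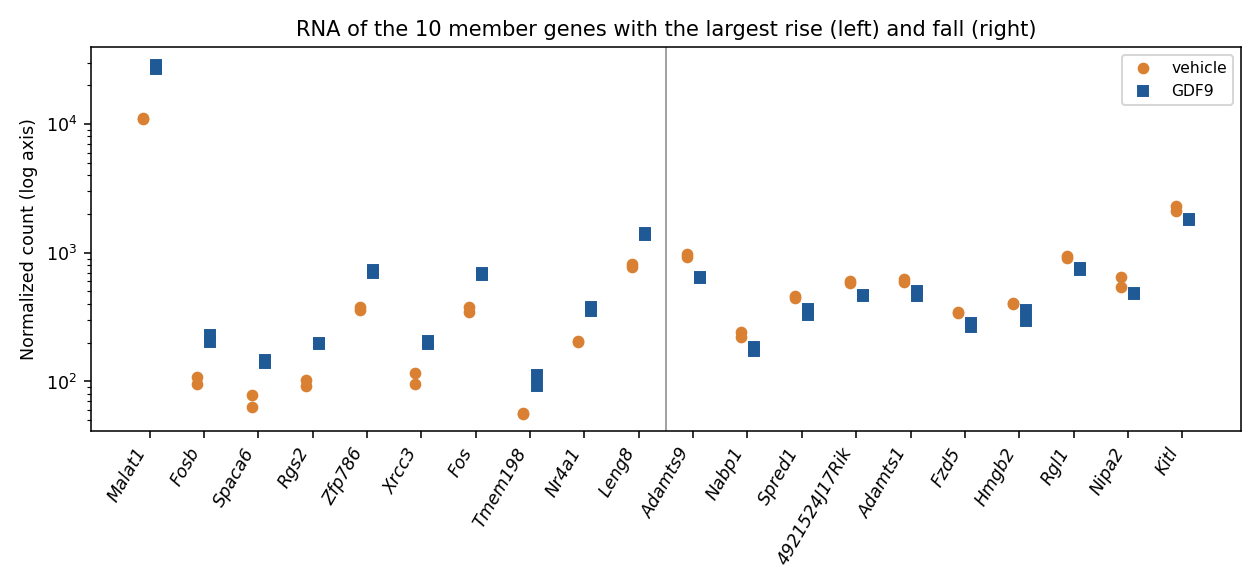
Normalized counts (log axis) of the 10 called genes with the largest rise (left) and the 10 with the largest fall (right) among genes with a shared SMAD region, 1 point per sample, vehicle in orange circles and GDF9 in blue squares. Malat1 stands highest, and the 2 treatments do not overlap in any of these genes.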

How the data were processed

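CUT&RUN peak lists (32) and an RNA table (4 samples) were used, and 8 IgG samples were not analysed here. The authors aligned CUT&RUN reads to mm10 with Bowtie2, scaled coverage to E. coli reads (100000 divided by their number) and called peaks per library with SEACR. Whether IgG served as control is not given in the sources used here. The deposited signal is the summed and maximum scaled coverage of each peak. Each maximum was a whole multiple of the value of 1 fragment. The authors aligned RNA with STAR 2.7.11b, counted with featureCounts 2.1.1 and deposited normalized counts, here a signal of reads over a size factor, from which whole reads were recovered (100% of values within 0.05). For GDF9 replicate 1, where 1 read is worth 1.007, so close to 1, the recovery is less sure, and depth, edgeR and DESeq2 values rest on it. The strand setting is not given, so that reads of overlapping genes cannot be told apart. Of 27179 RNA entries 1314 had no symbol, and 682 were not matched to GENCODE M21 by symbol (23436) or RefSeq gene number (1747).

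Starting regions chain overlapping HA vehicle peaks on chromosomes 1 to 19, X and Y, and those joined by bookended peaks alone were not merged. Shares of windows were compared over lists with exact permutation tests. RNA was tested with limma 3.58.1 in R 4.3.3 (trend, log2(value + 1), mean of at least 10, a scale that shrinks the changes of low genes), with Benjamini-Hochberg adjustment over all genes, and H3K27ac with limma on log2 summed signal. Alternatives included edgeR 4.0.16 and DESeq2 1.42.0 on the recovered reads. Overlaps and motif matches were computed in Python 3.11.15 and the limma fit was tested on simulated data. Fragment counts carry counting error only. Genes named are members of the 11 lists and the 10 largest called changes in each direction with a mean of at least 50. Regions named are the 10 highest-ranked, those at these genes and, chosen after their values were seen, those with the paired SMAD element. The regions and lists were chosen with earlier results of these data known.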

Additional observations from a re-analysis of the deposited data

How the results depend on the processing

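Of the results that answer a comparison, 97 values under alternatives stayed within their limits and 5 moved. The 97 include values that could not move, so this number does not measure robustness. For differences between treatments the limit was the spread between replicates, and the shift from leaving 1 list out cannot exceed it. Differences to other starting regions were positive in every list, so the sign-flip test without 1 list still gave its smallest possible p. No called value changed sign, while the difference between treatments for Smad3PA/PA H3K27ac, which was not called, did so without GDF9 replicate 2. The number of shared SMAD regions was 9235 to 10446 with 1 list left out, 8090 with the upper 50% of each list by maximum signal and 8719 with an overlap of at least 50%. With 1 list left out, the difference to other starting regions ranged from 11.91 to 13.93 points for Smad3PA/PA SMAD lists and from 21.23 to 23.27 for H3K27ac, and the difference between treatments from 5.085 to 28.32 (SMAD2), 0.6575 to 2.124 (PA), 3.51 to 12.23 (SMAD4), 1.725 to 3.135 (Smad2HA/+ H3K27ac) and -0.81 to 0.07 points (Smad3PA/PA H3K27ac). H3K27ac regions called at the shared SMAD regions were 35 in Smad2HA/+ cells with the highest maximum signal (0.819%, background 0.725%). They were 0 in both lines with any 1 list left out.

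Called member genes were 120 without a filter on low values (1.66%, against 1.03% of all genes), 88 with DESeq2 (1.36%, against 1.06%) and 237 with edgeR (3.65%, against 3.22%), 231 with promoters of 1 kb, 214 with promoters only, and 125 to 349 with 1 sample left out, 125 without vehicle replicate 1 and 349 without GDF9 replicate 2, where 63.6% were higher. The cause was not tested. Of 30 named genes that were called, 20 stayed called under all 12 alternatives, and calls were lost for Hmgb2 (highest adjusted p over its alternatives by limma, edgeR and DESeq2 0.402), Nipa2 (0.537), Nabp1 (0.392), Ier2 (0.281, DESeq2), Ier3 (0.229), Esr2 (0.185), Fzd5 (0.178), Adamts1 (0.096, DESeq2), 4921524J17Rik (0.0663, DESeq2) and Spred1 (0.0658). Alternatives within 10 classes of HA signal, by place and without masked windows were chosen after seeing the data.

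With a replicate block 302 member genes were called, and 0 (Smad2HA/+) and 1 (Smad3PA/PA, lower) H3K27ac region. Deviations of samples with the same number correlated by 0.00502 (RNA), 0.0267 and 0.00709 (H3K27ac of Smad2HA/+ and Smad3PA/PA), which does not show that the numbers pair the samples. These correlations do not see a shift common to a number. In Smad3PA/PA H3K27ac, replicate 2 lay above replicate 1 in both treatments, and the block raised the regions at an unadjusted p under 0.05 from 0.252% to 3.97% (6.67% of all regions tested). Depth limits the Smad3PA/PA SMAD lists, where peaks rest on 4 to 9 fragments.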

Other observations

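Among the 66 shared SMAD regions with the paired SMAD element, 19 lay in introns other than the first, 25 at promoters and 14 between genes, and the promoters included those of Map4, Rock2, Psmb5 and B3gnt2. These genes were named after their values were seen. The region at Map4 (chr9:109931096-109933980) had a peak in 6 of 12 Smad3PA/PA SMAD lists and in all 8 H3K27ac lists. Another of the 66, on chromosome 14 near 1700001F09Rik (chr14:43359039-43361532), had a peak in 10 of 12 Smad3PA/PA SMAD lists and in no H3K27ac list.

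Member genes with 2 or more shared SMAD regions were called in 54 of 848 cases (6.37%), against 3.62% of all member genes. The number of regions at a gene depends on its length, and that was not tested. Skil has 3 regions and Spsb1 has 4. The CREB element TGACGTCA was found in 2.36% of the shared, 1.24% of the other and 1.58% of all starting windows, and the nuclear receptor NR5A element CAAGGTCA in 4.78%, 7.42% and 6.62%. In windows with a GC content of 58.35% to 85.29% the CREB shares were 3.745% (shared) and 3.699% (other). From 50.62% to 58.1% they were 2.915% and 1.676%. The NR5A shares went both ways by GC content. They were 1.277% (shared) and 1.93% (other) from 58.35% to 85.29%, and 4.118% and 7.314% from 50.62% to 58.1%. From 45.89% to 50.37% NR5A had 9.393% and 8.963%, and from 41.4% to 45.64% it had 10.32% and 9.253%. Below that the shares were 5.835% and 6.943%.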
